A study of Mus musculus with 9 samples.

Results

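Inguinal fat is a white fat depot under the skin of the groin, and its response to 14 days at 6 °C was described here across genes in control mice. The comparison rests on 6 of the 9 arrays of the study, 3 from controls kept in the cold and 3 from controls kept at room temperature. Genes entered through array rows that the platform annotation names by 1 gene symbol. Of 31051 such rows, the 17083 whose mean over the 9 arrays reached the median of the whole table (a log2 value of 5.31) were kept, and the brightest row of each gene gave 16898 genes. The rows of 13812 further genes all lay below that level and were not tested.

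Control mice carried Adiponectin-rtTA and TRE-Cre with Zfp423+/+. In these animals the Adiponectin promoter drives a doxycycline-dependent activator, which switches on Cre, but no Zfp423 allele is floxed. The knockout mice carried Adiponectin-rtTA, Tre-CRE and Zfp423loxP/loxP. Mice of all groups were raised at room temperature to 8 weeks of age and then ate doxycycline chow for 28 days, so the drug, the activator and Cre were common to all groups. The cold controls were moved to 6 °C for the last 14 days, while the room temperature controls and the knockouts stayed warm throughout. The study set the cold group beside the knockouts to ask how far adipocytes without Zfp423, a zinc finger transcription factor of white adipocytes, resemble the beige adipocytes that form in the cold. No label states that replicates were different mice, so p-values measure only the spread between arrays, part of which may be technical.

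White adipocytes store triglyceride in 1 large droplet, whereas beige adipocytes, which appear among them in the cold, hold many mitochondria and the uncoupling protein UCP1. UCP1 lets protons leak back across the inner mitochondrial membrane, so that the energy of fuel oxidation is released as heat. Noradrenaline from sympathetic nerves starts the process through beta-adrenergic receptors. Fat kept in the cold is also known to make fatty acids and glycogen while it burns fuel.

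Values are the authors' log2 expression values. A gene is said to have risen or fallen where its limma test, fitted over all 9 arrays and adjusted by the Benjamini-Hochberg method over the 16898 genes, gave an adjusted p under 0.05. Errors of differences are the standard errors of that fit.

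The quartiles of the 9 arrays nearly coincided, with medians from 5.28 to 5.34, and the number of arrays limits the precision. For most genes the middle value of a group came from the same array: room temperature control replicate 3 for 67.3% of genes, knockout replicate 3 for 73.8% and cold replicate 2 for 52.9%. Whether these arrays hold RNA that is independent of the other arrays of their group was not tested, and if they do not, each group has fewer independent samples than arrays and the p-values are too small. Cold replicate 3 held almost no skeletal muscle RNA. The mean log2 value of 24 muscle genes was 6.76 in it, against 10.50 and 9.56 in the other cold arrays and 9.95, 10.47 and 10.15 in the controls. The muscle myosin gene Myh4 read 7.12 there and between 14.56 and 15.92 in the other 5 arrays of the comparison. Adipocyte genes were bright on all arrays: Plin1, which coats the lipid droplet, read 16.37, 16.23 and 16.16 in the cold and 16.40, 16.18 and 16.33 in the controls, and Adipoq, the adiponectin gene, lay between 14.71 and 15.34 in all 6.

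Most genes that passed the test were higher in the cold, while differences over all genes were balanced in direction. Of 16898 genes, 255 (1.51%) passed the test: 223 (1.32%) were higher and 32 (0.189%) lower in the cold. The median difference was 1.12 log2 units among the genes that rose and -0.58 among those that fell, while the median over all genes was -0.02. A total of 131 genes rose by more than 1 log2 unit and 7 fell by more than 1. The cold and control arrays overlapped for 0 of the 255 genes that passed. Whether or not they passed, 330 genes differed by more than 1 upwards and 312 by more than 1 downwards, and every cold array lay above every control for 2467 genes (14.6%) and below for 3057 (18.1%). Without the 3 in-between arrays 0 genes passed in limma, although 790 had an unadjusted p under 0.05 and all 255 differences kept their sign. Without room temperature control replicates 1, 2 and 3 the number of genes that passed was 90, 123 and 25, without knockout replicates 1, 2 and 3 it was 827, 985 and 74, and without cold replicates 1, 2 and 3 it was 66, 23 and 75.

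**Figure D1:**
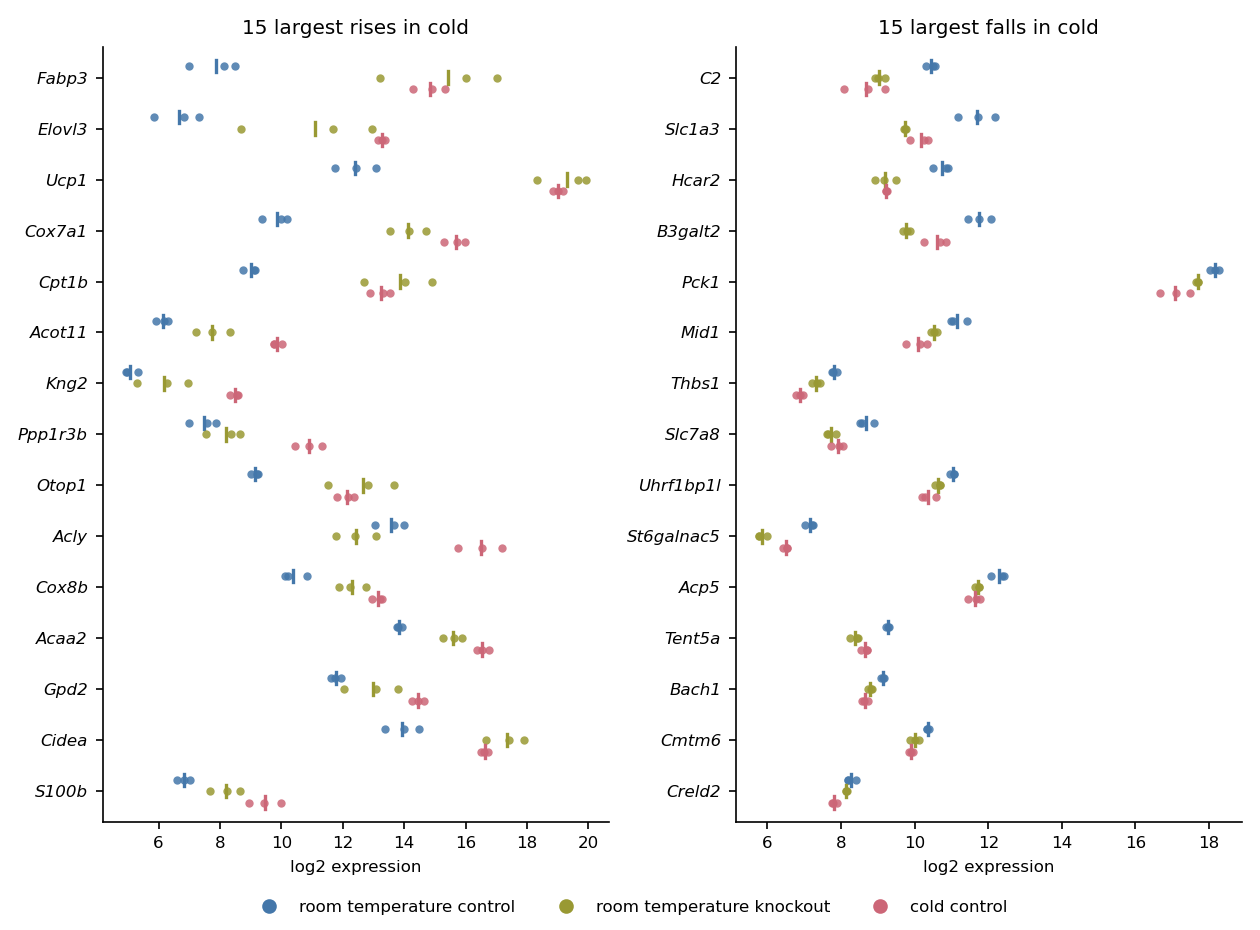
Log2 expression (x axes) of the 15 genes with the largest rises (left) and the 15 with the largest falls (right) in the cold, with predicted, pseudogene and small RNA symbols left out; each point is 1 array, each vertical tick a group mean, and colours mark room temperature controls, room temperature knockouts and cold controls. Among the genes shown, rises reached 6.97 log2 units (Fabp3) and falls 1.78 (C2). Genes were picked only among those whose cold and room temperature control arrays did not overlap.

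The 250 bases upstream of the RefSeq start (mouse build GRCm38.p6) are printed for 5 genes that rose, picked among those with a motif match. A match in each printed stretch thus follows from the choice. The genes are the heat-producing gene Ucp1, the thioesterase gene Acot11, the clock gene Ciart and a pair of subunit genes of succinate dehydrogenase. All 4 subunit genes of that enzyme rose. Elovl3 and Acly, which also rose, are not printed. Of the tested genes, 10071 had a promoter in the RefSeq table. Capitals mark the core of the site known for nuclear respiratory factor 1, GCNTGCGC, in Ucp1, Sdha and Sdhb, and the E-box CACGTG, which clock proteins and lipogenic factors are known to bind, in Acot11 and Ciart. Both strands were searched, and neither motif holds the other.
Ucp1, chr8:83290098-83290347, plus strand: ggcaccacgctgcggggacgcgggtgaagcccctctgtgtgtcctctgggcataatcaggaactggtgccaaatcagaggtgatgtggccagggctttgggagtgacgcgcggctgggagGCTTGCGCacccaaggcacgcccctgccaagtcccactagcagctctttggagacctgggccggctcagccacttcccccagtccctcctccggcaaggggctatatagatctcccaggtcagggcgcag
Sdha, chr13:74350241-74350490, minus strand: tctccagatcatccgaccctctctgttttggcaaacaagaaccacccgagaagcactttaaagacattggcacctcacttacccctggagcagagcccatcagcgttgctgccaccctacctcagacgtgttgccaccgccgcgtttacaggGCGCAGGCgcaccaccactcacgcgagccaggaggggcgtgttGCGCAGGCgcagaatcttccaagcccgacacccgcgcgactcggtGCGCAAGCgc
Sdhb, chr4:140961021-140961270, plus strand: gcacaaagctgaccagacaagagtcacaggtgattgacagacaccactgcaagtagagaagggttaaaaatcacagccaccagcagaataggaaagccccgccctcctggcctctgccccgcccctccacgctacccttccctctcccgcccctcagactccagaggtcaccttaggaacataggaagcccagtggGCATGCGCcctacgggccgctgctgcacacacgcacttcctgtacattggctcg
Acot11, chr4:106799832-106800081, minus strand: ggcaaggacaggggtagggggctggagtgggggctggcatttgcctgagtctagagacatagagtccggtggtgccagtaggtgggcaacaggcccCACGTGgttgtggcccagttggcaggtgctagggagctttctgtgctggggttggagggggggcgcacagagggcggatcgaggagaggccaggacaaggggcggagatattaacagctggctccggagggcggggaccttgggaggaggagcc
Ciart, chr3:95882229-95882478, minus strand: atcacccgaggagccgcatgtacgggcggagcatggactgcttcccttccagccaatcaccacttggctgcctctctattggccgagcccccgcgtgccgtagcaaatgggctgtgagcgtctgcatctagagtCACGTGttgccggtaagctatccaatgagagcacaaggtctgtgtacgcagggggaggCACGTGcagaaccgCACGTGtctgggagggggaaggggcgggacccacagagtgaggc

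These matches are descriptions of letters, not of bound sites. The respiratory factor core stood 3 times before Sdha, with first bases at -98, -55 and -10 from the start, once before Sdhb at -54 and once before Ucp1 at -130. The E-box stood 3 times before Ciart, at -116, -58 and -44, and once before Acot11 at -154. In windows of 300 bases (250 before and 50 after the start), the respiratory factor core was present in 14.3% of the genes that rose and have a promoter in the table, against 21% of all tested genes, and the E-box in 8.84% against 11.2%. The D-box TTATGTAA, a site of the clock output factors Tef and Hlf, was present in 0.68% (1 of 147 genes) against 0.695%. The estrogen-related receptor element TNAAGGTCA was present in 1.36% (2 of 147 genes) against 0.844%. These counts are too small for the shares to be compared. Neither the core nor the E-box was thus more frequent among genes that rose than among all genes tested.

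Genes of heat production held the largest differences. Ucp1 read 19.18, 19.00 and 18.86 in the cold arrays and 11.74, 13.07 and 12.42 in the room temperature controls. All 3 cold arrays were high, the groups did not overlap, and the cold arrays lay closer together than the controls. The rise was 6.61 ± 0.47 (SE) log2 units, or 97.5-fold (limma adjusted p = 0.00226), and since the table ends at 19.93 the cold values lie near the upper limit of the scale. Elovl3, an elongase that makes very long fatty acids in thermogenic fat, read 13.28, 13.14 and 13.39 in the cold and 5.85, 7.30 and 6.84 in the controls, and rose by 6.61 ± 1.00 (limma adjusted p = 0.0315). Acot11, a thioesterase that splits long-chain acyl-CoA and is known to be induced in cold brown fat, read 9.77, 9.77 and 10.01 against 5.92, 6.30 and 6.17. Its rise of 3.72 ± 0.26 was 13.2-fold (limma adjusted p = 0.00223). Acot11 was the only one of 12 tested acyl-CoA thioesterase genes to rise, against 1.32% of all genes. The list median was 0.27.

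Of 26 listed thermogenic effector genes 21 were tested; Eva1a, Cited1, Fgf21 and Bmp8b lay below the filter and Gk was not analysed here. Of the 21, 13 rose, 0 fell and 8 did not pass, with a median difference of 2.65. Over all tested genes 1.32% rose and 0.189% fell. The list was chosen with earlier results of these data known, so its count and median are not independent of them. It also holds genes with other known functions, such as the kininogen gene Kng2 and the neurotrophin receptor gene Ntrk3. Its name is therefore a label and not a function shared by all members. Fabp3, a fatty acid binding protein shared with muscle and heart, read 15.34, 14.90 and 14.29 in the cold against 6.98, 8.50 and 8.14 and rose by 6.97 ± 0.94 (limma adjusted p = 0.0217). Cpt1b, the muscle-type enzyme that admits fatty acids to mitochondria, rose by 4.25 ± 0.51 (limma adjusted p = 0.0141), with 13.54, 13.31 and 12.90 in the cold. Muscle also expresses both genes; in cold replicate 3, where the muscle gene Myh4 read 7.12, Fabp3 read 14.29 and Cpt1b 12.90, the lowest of the cold arrays and above all controls. The lipid droplet protein gene Cidea rose by 2.68 ± 0.36 and the proton channel gene Otop1 by 2.98 ± 0.48 (limma adjusted p = 0.0223 and 0.0367).

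Less familiar members of the same list rose as well. Kng2, a kininogen from which bradykinin is cut, read 8.57, 8.31 and 8.55 in the cold and 5.31, 4.96 and 4.92 in the controls, a rise of 3.41 ± 0.38 (limma adjusted p = 0.0116). The control arrays lay at or below the filter level, so Kng2 was tested because of its values in the other groups. S100b, a calcium-binding protein of Schwann cells that thermogenic adipocytes also make, read 10.00, 9.43 and 8.95 against 6.59, 6.83 and 7.01 and rose by 2.65 ± 0.32 (limma adjusted p = 0.0150). Among the 8 tested nerve and Schwann cell genes the median was 0.02, and the myelin gene Mbp fell by 0.41 ± 0.07 (limma adjusted p = 0.0393). The asparaginase gene Aspg rose by 1.38 ± 0.11 and the neurotrophin receptor gene Ntrk3 by 0.80 ± 0.12 (limma adjusted p = 0.00321 and 0.0267).

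Other well-known genes of beige fat differed without passing. Dio2, which makes active thyroid hormone, read 8.38, 7.89 and 7.57 in the cold and 5.73, 5.95 and 6.03 in the controls, so the groups did not overlap, but the difference of 2.04 ± 1.24 had a limma adjusted p of 0.380. The 3 knockout arrays of Dio2, which enter the estimate of its spread, read 7.65, 13.19 and 11.54. The coactivator gene Ppargc1a, which drives mitochondrial biogenesis, read 10.69, 10.45 and 10.15 against 8.87, 8.69 and 8.55, a difference of 1.73 ± 0.89 (limma adjusted p = 0.312). Its knockout arrays were spread as widely, at 9.77, 13.80 and 12.40. Ucp3, an uncoupling protein of muscle, differed by 0.80 ± 0.40 (limma adjusted p = 0.297), while Ucp2 and Kng1 were not among the genes tested.

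The lists held no call among regulators of the beige state. Of 21 tested beige and brown regulator genes 0 passed in limma, against 1.51% of all genes. The median was 0.17 and the range ran from -0.56 to 1.73. The cold arrays lay above all controls for 9 and below for 2, against 14.6% and 18.1% of all tested genes. Ppargc1b, the sister gene of Ppargc1a, differed by 1.13 ± 0.36 (limma adjusted p = 0.159), and the zinc finger regulator gene Prdm16 by 0.50 ± 0.18 (limma adjusted p = 0.202). When the model was fitted to the cold and room temperature controls alone, 6 of the 21 regulators and 20 of the 21 thermogenic effectors passed as higher, while 5.47% of all genes did so.

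Among 11 tested receptor genes of the adrenergic and related lists, Hcar2 alone passed, and it fell. Over all tested genes 1.32% rose and 0.189% fell. Hcar2 encodes the nicotinic acid and ketone body receptor, which restrains lipolysis. It read 9.25, 9.21 and 9.21 in the cold and 10.84, 10.49 and 10.91 in the controls, a fall of 1.52 on the log2 scale (SE 0.16, limma adjusted p = 0.0110). The beta-adrenergic receptor genes were not analysed here. Of 10 tested genes of creatine and calcium cycling 0 passed, against 1.51% of all genes, with a median of -0.01. The muscle calcium pump gene Atp2a1 among them read 14.09, 12.69 and 5.98 in the cold, following the muscle content of the arrays.

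Mitochondrial genes formed the broadest group that rose. Of 33 tested subunit genes of complex I, which passes electrons from NADH to ubiquinone, 11 rose, 0 fell and the median was 0.91. For all 33 every cold array lay above every control. Among all tested genes 1.32% rose and 14.6% lay above every control. Ndufa9 read 13.75, 13.65 and 13.58 against 12.11, 11.91 and 12.02 and rose by 1.65 ± 0.21 (limma adjusted p = 0.0163). Ndufs8 rose by 1.57 ± 0.16, Ndufv1 by 1.49 ± 0.18 and Ndufs1 by 1.48 ± 0.17 (limma adjusted p between 0.00997 and 0.0150). These 4 genes encode an accessory subunit and 3 core subunits that carry iron-sulphur clusters or the flavin.

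Complexes II and III and cytochrome c shifted further. Of 14 tested genes 8 rose, against 1.32% of all genes, and the median was 1.47. The cold arrays lay above the controls for all 14, against 14.6% of all genes. All 4 succinate dehydrogenase subunit genes rose: Sdha by 1.12 ± 0.12, Sdhb by 1.58 ± 0.19, Sdhc by 1.31 ± 0.20 and Sdhd by 1.99 ± 0.34 (limma adjusted p between 0.0110 and 0.0422). Sdhb read 12.51, 12.34 and 12.10 in the cold and 10.65, 10.93 and 10.62 in the controls, and Sdha 14.40, 14.31 and 14.19 against 13.34, 12.98 and 13.21. Both are the genes whose upstream bases are shown above, and neither overlapped between groups. Of complex III, the core gene Uqcrc1 rose by 2.43 ± 0.26, the cytochrome c1 gene Cyc1 by 2.11 ± 0.30 and Uqcrq by 1.74 ± 0.23 (limma adjusted p between 0.0110 and 0.0256).

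Complex IV, cytochrome c oxidase, showed unequal differences between tissue isoforms. Cox7a1, the heart, muscle and brown fat form of subunit VIIa, read 15.99, 15.73 and 15.30 in the cold and 9.38, 10.18 and 9.99 in the controls. The rise of 5.82 ± 0.34 was 56.6-fold (limma adjusted p = 0.00124). Its widely expressed partner Cox7a2 read 13.94, 13.91 and 13.57 against 12.61, 12.45 and 12.53 and rose by 1.28 ± 0.21 (limma adjusted p = 0.0388). The heart and muscle form Cox8b rose by 2.77 ± 0.26 (limma adjusted p = 0.00835) and its common partner Cox8a by 0.58 ± 0.10 (limma adjusted p = 0.0461). In both pairs the tissue form had the larger difference, and the differences within pairs were not tested. In cold replicate 3, where the muscle gene list mean was 6.76, Cox7a1 read 15.30 and Cox8b 12.96, the lowest of the cold arrays and above all controls. Over 15 tested complex IV genes 7 rose, against 1.32% of all genes, with a median of 0.73.

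ATP synthase had the smallest median of the respiratory lists, 0.65, with 3 of 15 tested genes higher, against 1.32% of all genes. Atp5l, a subunit of the membrane part, rose by 1.34 ± 0.22, and the catalytic head genes Atp5a1 and Atp5b rose by 1.04 ± 0.17 and 0.65 ± 0.10 (limma adjusted p between 0.0315 and 0.0397). Brown fat is known for little ATP synthase beside its respiratory chain.

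Enzymes that feed the chain rose with it. Of 27 tested genes of the citric acid cycle and pyruvate dehydrogenase 15 rose and 0 fell. The median was 1.40, and 1.32% of all tested genes rose. The subunits of succinyl-CoA ligase led: Suclg1 read 11.69, 11.45 and 11.23 against 8.90, 9.11 and 9.04 and rose by 2.44 ± 0.27 (limma adjusted p = 0.0113), and Sucla2 rose by 2.22 ± 0.23 (limma adjusted p = 0.0110). Of pyruvate dehydrogenase, which turns pyruvate into acetyl-CoA, Pdhb rose by 2.21 ± 0.34, Dlat by 2.01 ± 0.31 and Pdha1 by 1.72 ± 0.25 (limma adjusted p between 0.0267 and 0.0338). Idh3g, a regulatory subunit of isocitrate dehydrogenase, rose by 0.95 ± 0.06 (limma adjusted p = 0.00124), with cold arrays at 15.45, 15.46 and 15.44 and controls at 14.52, 14.42 and 14.55. The spread within each group was small beside that difference.

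Of 22 tested genes of fatty acid oxidation 14 rose, against 1.32% of all genes, and 0 fell, with a median of 1.27. Acaa2, the thiolase of the last step, read 16.75, 16.52 and 16.38 against 13.92, 13.75 and 13.80 and rose by 2.73 ± 0.16 (limma adjusted p = 0.00125). Acadvl, which opens the oxidation of long chains, rose by 2.43 ± 0.26 and Hadha, the alpha subunit of the trifunctional protein, by 1.80 ± 0.25 (limma adjusted p = 0.0112 and 0.0256). The dehydrogenases for long, medium and short chains, Acadl, Acadm and Acads, rose by 1.30 ± 0.18, 1.11 ± 0.17 and 1.30 ± 0.18 (limma adjusted p between 0.0223 and 0.0300). The dehydrogenases of very long, long, medium and short chains were thus all among the genes that rose.

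Branched-chain amino acids are a further fuel of thermogenic fat. Of 23 tested genes of their breakdown 5 rose, against 1.32% of all genes, and 0 fell, with a median of 0.54. Bckdha, a subunit of the rate-limiting dehydrogenase, read 13.20, 13.01 and 13.02 against 11.73, 11.82 and 11.66, and its rise of 1.34 ± 0.07 had a limma adjusted p of 0.000886. Echs1, Pcca, Hibch and Acad8, which act further down, rose by 1.07 ± 0.15, 0.98 ± 0.11, 0.77 ± 0.06 and 0.47 ± 0.06 (limma adjusted p between 0.00321 and 0.0267). All 5 of these genes were higher in every cold array than in every control, as was every gene that rose.

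The lists on mitochondrial upkeep had smaller medians. For comparison, 1.32% of all tested genes rose. Of 73 tested mitochondrial ribosomal protein genes 2 rose, Mrpl50 by 0.98 ± 0.16 and Mrpl16 by 0.92 ± 0.13 (limma adjusted p = 0.0367 and 0.0268), with a median of 0.30; the cold arrays lay above the controls for 60 of them, against 14.6% of all genes. Of 42 import, proteostasis and dynamics genes 2 rose, the peptidase subunit gene Pmpcb by 0.78 ± 0.14 and the inner membrane protease gene Spg7 by 0.25 ± 0.03 (limma adjusted p = 0.0445 and 0.0165), with a median of 0.49. Of 11 coenzyme Q synthesis genes 2 rose, Coq9 by 1.13 ± 0.08 and Coq6 by 0.86 ± 0.10 (limma adjusted p = 0.00274 and 0.0128), with a median of 0.61. Of 30 carriers of the Slc25 family 1 rose, the dicarboxylate carrier gene Slc25a10, by 1.08 ± 0.16 (limma adjusted p = 0.0315), with a median of 0.29. Of 33 peroxisomal genes 1 rose, the thiolase gene Acaa1b, by 0.53 ± 0.09 (limma adjusted p = 0.0466), with a median of 0.24.

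**Figure D2:**
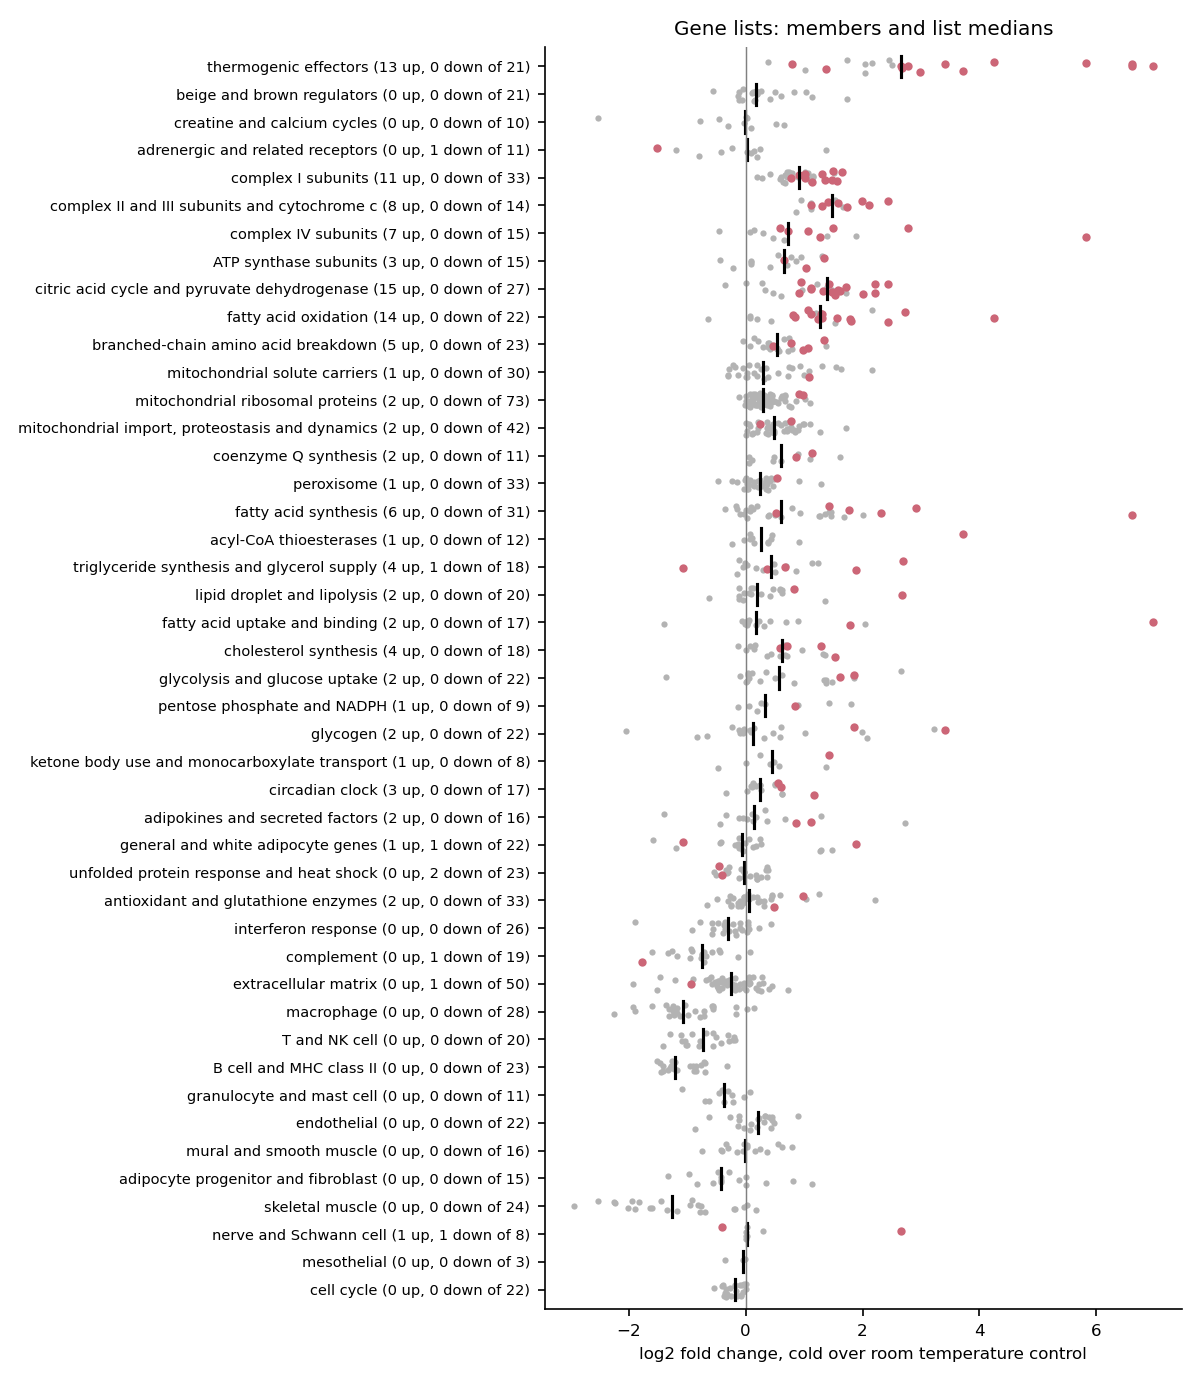
Log2 fold change of cold over room temperature controls (x axis) for the tested members of 45 gene lists (rows, with the members that rose and fell and the number tested); red points passed the limma test, grey points did not, and black bars are list medians. Medians were highest for thermogenic effectors (2.65), complexes II and III with cytochrome c (1.47) and the citric acid cycle (1.40), and lowest for skeletal muscle (-1.26) and B cell and MHC class II genes (-1.20), where 0 members passed.

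Genes that make fatty acids rose alongside those that burn them. Acly, which makes cytosolic acetyl-CoA from citrate, read 15.74, 16.55 and 17.20 in the cold and 13.06, 14.01 and 13.68 in the controls. The cold arrays were all higher than the controls but differed widely among themselves, and the rise was 2.91 ± 0.47 or 7.54-fold (limma adjusted p = 0.0363). Acss2, which makes acetyl-CoA from acetate, rose by 1.77 ± 0.30 (limma adjusted p = 0.0405), and Aacs, which makes acetoacetyl-CoA from ketone bodies, by 1.42 ± 0.16 (limma adjusted p = 0.0116). The 3 control arrays of Aacs held 1 value, 11.56, as did 975 of the tested genes at their own values, and the cold arrays read 12.96, 13.09 and 12.91. Pnpla3, a lipid droplet enzyme gene that rises with lipogenesis, rose by 2.31 ± 0.33 and the mitochondrial acyl carrier transferase gene Mcat by 0.52 ± 0.06 (limma adjusted p = 0.0256 and 0.0112). With Elovl3, 6 of 31 tested fatty acid synthesis genes rose, against 1.32% of all genes, 0 fell and the median was 0.60.

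The large synthetic enzymes themselves did not pass. The fatty acid synthase gene Fasn read 19.07, 19.44 and 19.69 against 18.50, 18.69 and 18.64, a difference of 0.79 ± 0.24 (limma adjusted p = 0.149), close to the end of the scale. The carboxylase gene Acaca had a mean of 17.30 ± 0.75 (SD, n = 3) in the cold, its lowest cold array reading 16.51, against 16.01, 16.08 and 16.07, a difference of 1.25 ± 0.41 (limma adjusted p = 0.165). For both genes the cold arrays lay above the controls without overlap. The desaturase gene Scd1 lay between 19.90 and 19.93 on all 6 arrays, at the end of the scale, where differences cannot be seen.

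Carbon for the glycerol backbone and the final esterification also moved. Gpd2 and Gpd1, the mitochondrial and cytosolic glycerol-3-phosphate dehydrogenases, rose by 2.70 ± 0.40 and 1.88 ± 0.22 (limma adjusted p = 0.0291 and 0.0140). Gpd1 read 18.61, 18.62 and 18.75 against 16.69, 16.91 and 16.73. Together these enzymes form the glycerol phosphate shuttle, which carries electrons from cytosolic NADH to the respiratory chain and is known to be active in brown fat. Dgat2, which adds the last acyl chain of triglyceride, rose by 0.67 ± 0.09 (limma adjusted p = 0.0255). Pck1, an enzyme on the route from non-sugar carbon to glycerol phosphate, moved the other way: it read 16.66, 17.09 and 17.47 in the cold and 18.27, 18.03 and 18.15 in the controls and fell by 1.08 on the log2 scale (SE 0.18, limma adjusted p = 0.0420). Of the 18 tested genes of this list 4 rose and 1 fell, against 1.32% and 0.189% of all genes, with a median of 0.43.

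The droplet and uptake lists changed little as groups. For comparison, 1.32% of all tested genes rose. Of 20 lipid droplet and lipolysis genes 2 rose, Cidea and the coat protein gene Plin3 (by 0.83 ± 0.11, limma adjusted p = 0.0202), with a median of 0.20. Of 17 fatty acid uptake and binding genes 2 rose, Fabp3 and the acyl-CoA synthetase gene Acsl5, with a median of 0.17. Acsl5 read 13.48, 13.30 and 13.42 against 11.56, 11.67 and 11.62 and rose by 1.78 ± 0.15 (limma adjusted p = 0.00396).

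Sterol synthesis genes rose from the middle of their pathway. Pmvk, which makes mevalonate diphosphate, read 10.05, 10.06 and 10.26 in the cold and 8.69, 8.49 and 8.60 in the controls and rose by 1.53 ± 0.20 (limma adjusted p = 0.0189). Fdps, which joins isoprene units, rose by 1.29 ± 0.22, Msmo1, a sterol demethylation enzyme, by 0.70 ± 0.11 and the isomerase gene Idi1 by 0.59 ± 0.07 (limma adjusted p between 0.0127 and 0.0437). Of 18 tested genes 4 rose, against 1.32% of all genes, and 0 fell, with a median of 0.63.

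Single genes of sugar and glycogen metabolism passed the test. Ppp1r3b, which brings protein phosphatase to glycogen and so favours its synthesis, read 10.44, 10.90 and 11.32 in the cold and 6.98, 7.86 and 7.59 in the controls, a rise of 3.41 ± 0.37 (limma adjusted p = 0.0112). Pygl, the liver-type phosphorylase that breaks glycogen down, read 13.88, 14.36 and 14.84 against 12.50 on each control array and rose by 1.86 ± 0.26 (limma adjusted p = 0.0255). Genes with opposite roles in glycogen turnover thus rose together, while the median over 22 glycogen genes was 0.12. The glycogen synthase gene Gys2 read 13.49, 13.37 and 13.54 against 10.70, 9.84 and 10.16, but its difference of 3.23 ± 0.70 did not pass (limma adjusted p = 0.0775).

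The fructose transporter gene Slc2a5 read 7.02, 7.60 and 8.14 in the cold against 5.76, 5.76 and 5.71 and rose by 1.85 ± 0.26 (limma adjusted p = 0.0260). The pyruvate kinase gene Pkm rose by 1.62 ± 0.26 (limma adjusted p = 0.0363), and the insulin-regulated glucose transporter gene Slc2a4 differed by 1.47 ± 0.34 without passing (limma adjusted p = 0.0880). Of 22 glycolysis and uptake genes 2 rose, against 1.32% of all genes. The cold arrays lay above all controls for 13 (14.6% of all genes did so) and the median was 0.57. Of 9 genes of the pentose phosphate path and NADPH supply 1 rose, the cytosolic isocitrate dehydrogenase gene Idh1, by 0.84 ± 0.15 (limma adjusted p = 0.0443), 7 lay above all controls and the median was 0.33. Of 8 ketone body genes Aacs alone passed, with a median of 0.45.

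Output genes of the circadian clock were among those that rose. The repressor gene Ciart, whose E-boxes are shown above, read 7.83, 8.19 and 8.59 in the cold and 7.13, 6.83 and 7.12 in the controls and rose by 1.17 ± 0.19 (limma adjusted p = 0.0388). Tef and Hlf, transcription factors of the D-box, rose by 0.61 ± 0.07 and 0.55 ± 0.10 (limma adjusted p = 0.0140 and 0.0445). Dbp, the third gene of that family, read 12.95, 12.93 and 12.96 against 13.14, 12.53 and 12.89, a difference of 0.09 ± 0.18 (limma adjusted p = 0.808), and its groups overlapped. Of 17 clock genes 3 rose, against 1.32% of all genes, 0 fell and the median was 0.25. The labels give no time of day for tissue collection.

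Of 16 tested adipokine and secreted factor genes 2 rose, against 1.32% of all genes. Nampt, which makes NAD precursors and is also released by fat, read 13.51, 13.41 and 13.37 against 12.19, 12.47 and 12.26 and rose by 1.12 ± 0.08 (limma adjusted p = 0.00219). Pm20d1, a secreted enzyme that makes N-acyl amino acids, rose by 0.87 ± 0.09 (limma adjusted p = 0.0112). The list median was 0.15, and the leptin gene Lep differed by 1.29 ± 0.74 without passing (limma adjusted p = 0.354). Of 22 general and white adipocyte genes 1 rose (Gpd1) and 1 fell (Pck1), against 1.32% and 0.189% of all genes. Their median of -0.07 became 0.03 under quantile normalization.

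Stress genes showed few calls. Among all tested genes 1.32% rose and 0.189% fell. Of 33 antioxidant and glutathione genes 2 rose, Gsta4, which clears lipid aldehydes, by 0.98 ± 0.09 and the mitochondrial thioredoxin reductase gene Txnrd2 by 0.48 ± 0.06 (limma adjusted p = 0.00835 and 0.0163). Of 23 genes of the unfolded protein response and heat shock 2 fell, the chaperone genes Creld2 by 0.45 (SE 0.07) and Pdia6 by 0.41 (SE 0.06) on the log2 scale (limma adjusted p = 0.0371 and 0.0256). The medians of these lists were 0.05 and -0.03.

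Fewer genes fell than rose: 32 passed as lower (0.189%), although the cold arrays lay below all controls for 18.1% of genes. C2, a protease of the complement cascade, read 9.18, 8.74 and 8.09 in the cold and 10.54, 10.30 and 10.50 in the controls and fell by 1.78 on the log2 scale (SE 0.25, limma adjusted p = 0.0255). The glutamate transporter gene Slc1a3 read 10.36, 10.25 and 9.87 against 12.18, 11.19 and 11.72 and fell by 1.53 (SE 0.24, limma adjusted p = 0.0350). B3galt2 and St6galnac5, which build sugar chains, fell by 1.16 (SE 0.20) and 0.66 (SE 0.09), the ubiquitin ligase gene Mid1 by 1.07 (SE 0.17) and the amino acid transporter gene Slc7a8 by 0.77 (SE 0.13). Their limma adjusted p lay between 0.0202 and 0.0439. Thbs1, a matrix protein of platelets and fat, read 6.96, 6.78 and 6.89 against 7.89, 7.75 and 7.78 and fell by 0.93 (SE 0.08, limma adjusted p = 0.00396). Uhrf1bp1l, the phosphatase gene Acp5 of macrophages and osteoclasts, the nucleotidyltransferase gene Tent5a, the haem-sensing repressor gene Bach1 and Cmtm6 fell by between 0.46 and 0.68 (limma adjusted p between 0.0125 and 0.0484).

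Immune cell markers lay lower in the cold without passing the test over all 9 arrays, which 1.51% of all genes passed. For 28 tested macrophage genes the median was -1.08, 0 passed and the cold arrays lay below all controls for 19, against 18.1% of all genes. Cd68, a lysosomal protein of macrophages, read 8.86, 9.22 and 9.17 in the cold and 10.24, 12.33 and 11.47 in the controls, a difference of -2.26 ± 0.84 (limma adjusted p = 0.207). The controls were spread over more than 2 log2 units and the cold arrays over less than 1. H2-Eb1, which presents antigen, read 11.40, 11.47 and 11.37 against 11.92, 13.79 and 12.89, and Cd79b, part of the B cell receptor, read 9.46, 10.13 and 10.45 against 10.51, 12.50 and 11.57. Of 23 B cell and MHC class II genes 0 passed and 14 lay below, with a median of -1.20. Of 20 T and NK cell genes 0 passed and 17 lay below, with a median of -0.73. The outcome depended on the model. With the cold and room temperature controls fitted alone, 4 macrophage and 5 T and NK cell genes passed as lower. In that fit 0 B cell and MHC class II genes did so, and 2.5% of all genes did. In whole tissue, fewer cells of a type and less RNA per cell cannot be told apart.

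Other immune and stromal lists held few calls. Over all genes, 0.189% passed as lower and 18.1% lay below all controls. Of 19 complement genes C2 alone fell, 16 lay below all controls and the median was -0.75. Of 50 extracellular matrix genes Thbs1 alone fell, 18 lay below and the median was -0.25. Of 26 interferon response genes and 11 granulocyte and mast cell genes 0 passed, with medians of -0.30 and -0.37. With the 2 groups fitted alone, 7 complement, 4 matrix, 1 interferon response and 0 granulocyte and mast cell genes passed as lower, against 2.5% of all genes. Control replicate 2 had the highest mean of the 3 controls for the macrophage, T and NK cell and B cell lists, 10.24 for the first and 10.75 for the last, where control replicate 1 read 9.33 and 9.48. The part of immune cell content in the genes that fell was not tested.

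The lists for other cells of the pad differed little. For comparison, 1.51% of all tested genes passed. Of 22 endothelial genes, 16 mural and smooth muscle genes, 15 progenitor and fibroblast genes and 22 cell cycle genes 0 passed, with medians of 0.22, -0.01, -0.42 and -0.18. The capillary gene Emcn read 11.32, 11.20 and 11.00 in the cold against 10.46, 10.11 and 10.26, and the pericyte gene Cspg4 8.77, 8.56 and 8.12 against 7.87, 7.57 and 7.65, both above the controls but not past the threshold (limma adjusted p = 0.197 and 0.120). All 19 epithelial genes that had a row of their own lay below the filter. Of 3 mesothelial genes 0 passed, with a median of -0.05, and the single red blood cell gene tested, Alas2, differed by 0.31 ± 0.14 (limma adjusted p = 0.260). For 24 skeletal muscle genes the median was -1.26 with 0 calls, which rests on cold replicate 3: the list mean of the other 2 cold arrays lay 0.31 above and 0.63 below the control mean, and that of replicate 3 lay at -3.43.

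**Figure D3:**
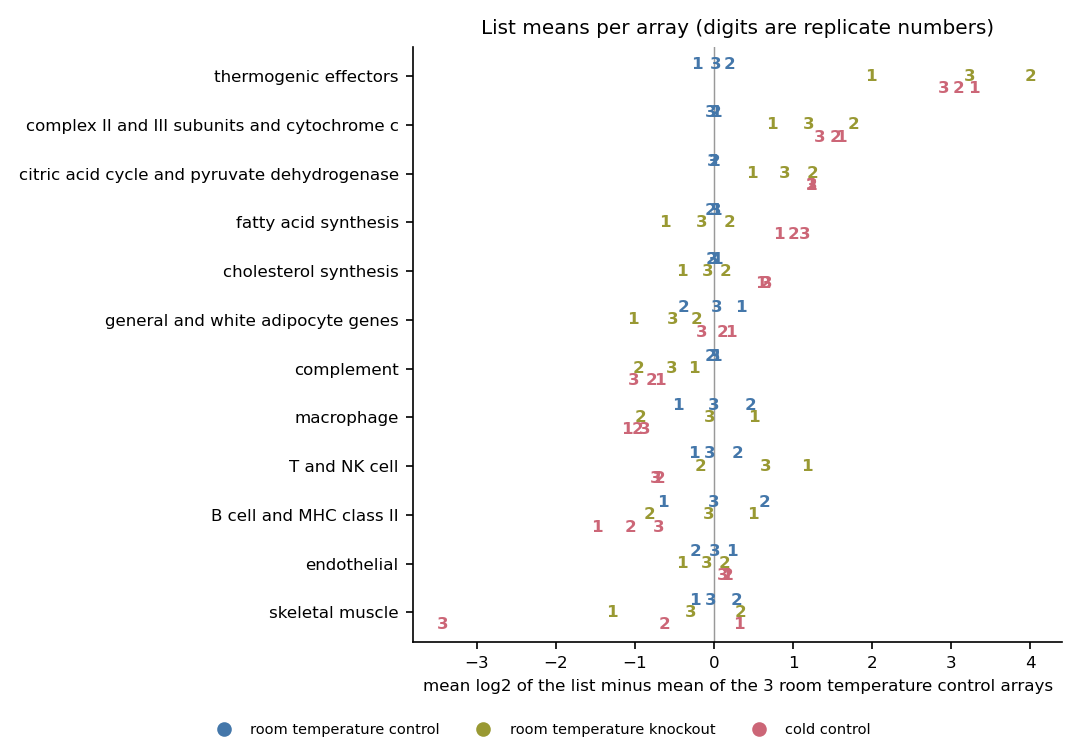
Mean log2 value of each gene list on each array, minus the mean of the 3 room temperature control arrays (x axis); digits are replicate numbers and colours the 3 groups. Thermogenic effectors lay 2.91 to 3.29 above the controls in the cold arrays and at least 1.99 above in the knockouts, while fatty acid synthesis lay 0.82 to 1.15 above in the cold and between -0.62 and 0.19 in the knockouts; cold replicate 3 stands alone at -3.43 for skeletal muscle.

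The cold tissue was also compared with the room temperature knockouts. That comparison shares the cold arrays with the first, so the values are given side by side and no overlap is tested. In it 405 genes (2.4%) passed, of which 210 (1.24%) were higher and 195 (1.15%) lower in the cold. Without the 3 in-between arrays 0 passed in limma, with 985 at an unadjusted p under 0.05. Without room temperature control replicates 1, 2 and 3 the count was 643, 605 and 73, without knockout replicates 1, 2 and 3 it was 197, 2694 and 14, and without cold replicates 1, 2 and 3 it was 98, 30 and 155. Of 21 genes on the thermogenic effector list 3 were higher and 1 lower in the cold, with a median difference of -0.30. The list members Fabp3, Cpt1b, Cidea and Otop1 passed in neither direction in limma. Ucp1 read 18.34, 19.92 and 19.68 in the knockouts, and cold differed from them by -0.30 ± 0.47 (limma adjusted p = 0.715). Knockout replicate 2 lay at the end of the scale, where differences are compressed, so this value does not show that the levels are alike. The knockout arrays of Ucp1 overlapped the cold arrays.

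Acot11 had a knockout mean of 7.75, and the cold arrays lay 2.10 ± 0.26 above the knockouts (limma adjusted p = 0.0168). Kng2 lay 2.31 ± 0.38 above and Aspg 0.91 ± 0.11 above (limma adjusted p = 0.0334 and 0.0143). Ntrk3 was higher in the knockouts than in the cold, by 0.85 (cold minus knockout -0.85 ± 0.12, limma adjusted p = 0.0204), while it also rose in the cold. Cox7a1 lay 1.53 ± 0.34 higher in the cold than in the knockouts, short of the threshold (limma adjusted p = 0.0634). None of the 33 complex I and 14 complex II, III and cytochrome c genes passed in either direction by limma, with median differences of 0.23 and 0.30.

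Lipid synthesis genes were among those higher in the cold than in the knockouts. Of 31 fatty acid synthesis genes 10 were higher in the cold and 0 lower, against 1.24% and 1.15% of all genes. Their median was 1.02, against a median of 0.60 over the room temperature controls. Acly lay 4.08 ± 0.47 above the knockout mean of 12.42, Acss2 3.10 ± 0.30 and Aacs 2.50 ± 0.16 above (limma adjusted p between 0.00223 and 0.0127). Acaca and Fasn, which did not pass against the controls, were higher in the cold than in the knockouts by 2.66 ± 0.41 and 1.71 ± 0.24 (limma adjusted p = 0.0270 and 0.0225). For Acaca the knockout arrays read 14.05, 15.19 and 14.67, below all 3 room temperature controls, so part of that distance lies on the knockout side. Slc25a10 lay 2.35 ± 0.16 above the knockouts (limma adjusted p = 0.00302).

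**Figure D4:**
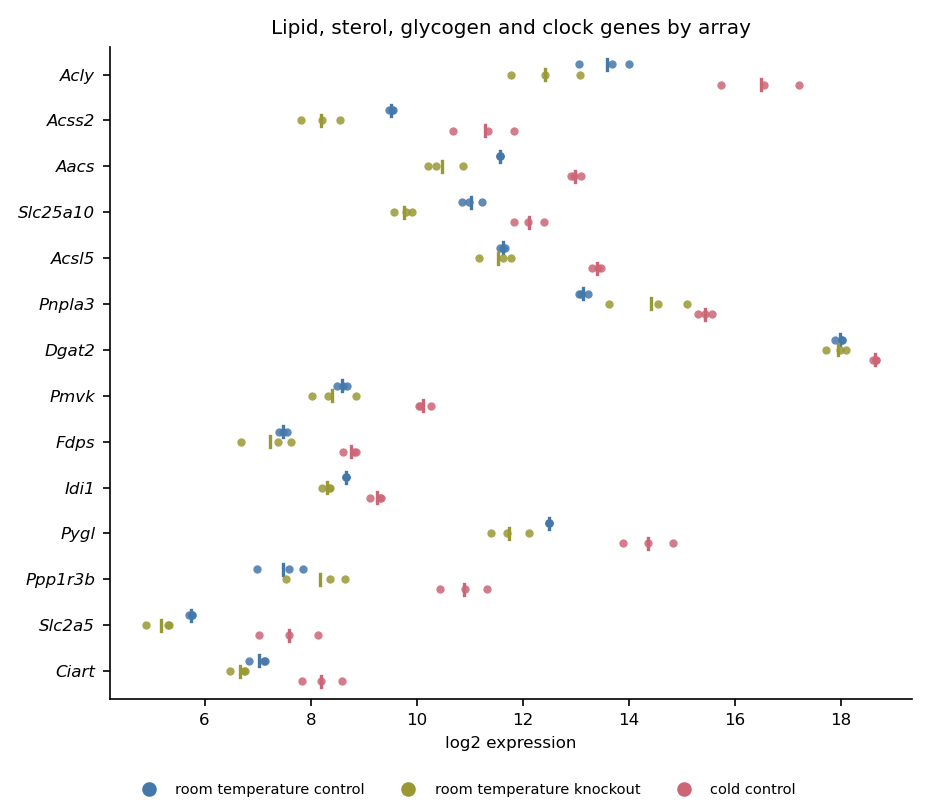
Log2 expression (x axis) of 14 lipid, sterol, glycogen, sugar transport and clock genes that rose in the cold; each point is 1 array, ticks are group means, and colours mark the 3 groups. The 14 genes were picked by hand with their values known. Their cold arrays lay above both room temperature groups, and the knockout means lay below the control means for all but Pnpla3 and Ppp1r3b. For Dgat2 and Acsl5 the knockout means lay only 0.04 and 0.09 log2 units below. Other lipid and sugar genes that rose, not shown, had knockout means above the control means: Elovl3 by 4.44, Gpd2 by 1.21, Gpd1 by 0.87 and Pkm by 0.70.

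Single genes of other metabolic lists were higher in the cold than in the knockouts too, as were 1.24% of all tested genes. Of 18 cholesterol synthesis genes 8 were higher in the cold than in the knockouts and 0 lower, with a median of 0.75: Pmvk by 1.72 ± 0.20, Fdps by 1.53 ± 0.22, Idi1 by 0.95 ± 0.07 and Msmo1 by 0.78 ± 0.11 (limma adjusted p between 0.00302 and 0.0262). Ppp1r3b lay 2.71 ± 0.37, Pygl 2.62 ± 0.26 and Slc2a5 2.42 ± 0.26 above the knockouts (limma adjusted p between 0.00943 and 0.0197). Of 23 branched-chain amino acid genes 5 were higher, among them Bckdha by 0.99 ± 0.07 and Pcca by 0.82 ± 0.11 (limma adjusted p = 0.00302 and 0.0213), and of 17 clock genes 6, among them Ciart by 1.54 ± 0.19 and Nr1d1 by 0.92 ± 0.14 (limma adjusted p = 0.0172 and 0.0272). Of the 223 genes that rose against the controls 85 were also higher than in the knockouts, and of the 32 that fell 7 were also lower; these counts share the cold arrays and are a description.

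A small set of genes passed whichever single array was left out. Among the 223 genes that rose 19 kept the call in 17 of the 18 alternatives counted, and 0 of the 32 that fell did so; the exception for each of the 19 was the removal of the 3 in-between arrays. They are named here after their values were seen. Besides Ucp1, Cox7a1, Acot11, Acaa2, Acsl5, Bckdha, Hibch, Coq9, Nampt and Idh3g, they include Zadh2, a prostaglandin reductase gene, which read 9.86, 9.86 and 9.73 against 8.44, 8.44 and 8.42 and had the smallest limma adjusted p among the genes that rose (rise 1.38 ± 0.05, 0.000289). Dhrs7, a short-chain dehydrogenase gene, rose by 1.77 ± 0.14, the G protein gene Gnao1 by 1.39 ± 0.11, Ahcyl1, a regulator of calcium release, by 1.17 ± 0.08, and Coasy, which completes coenzyme A, by 1.10 ± 0.06 (limma adjusted p between 0.00124 and 0.00327). Fmo1, a flavin monooxygenase gene, and Ralgapa2, an inhibitor of Ral signalling, rose by 0.65 ± 0.05 and 0.62 ± 0.05 (limma adjusted p = 0.00396 and 0.00321). The other two, Gm5421 and Glns-ps1, are predicted or pseudogene rows that may share probes with other genes.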

How the data were processed

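Total RNA of inguinal fat was hybridised to Affymetrix MTA 1.0 arrays, 1 per sample. The authors deposited 72688 rows of log2 values, made with Affymetrix Expression Console per the submitters' processing notes; version, summarisation and build: not given in the sources used here. The log2 scale was read from the values, which run from 1.84 to 19.93. Rows were named through the platform annotation; 1534 rows name several symbols and 33185 none, and RefSeq GRCm38.p6 served for names and promoters only. Groups came from the labels. Values were fitted with limma 3.58.1 in R 4.3.3 (lmFit and eBayes, 3 group means over 9 arrays, 6 residual and 1.23 prior degrees of freedom), two-sided; p was adjusted over 16898 genes by Benjamini-Hochberg, threshold 0.05.

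The markers and the 47 gene lists were chosen with earlier results of these data known. Named are 4 markers, the 15 largest rises and 15 largest falls among genes that passed without overlap (predicted, pseudogene, small RNA, olfactory and immunoglobulin symbols left out), up to 4 members of each list that passed with the largest change, or 2 as values where none passed, and Cox7a2, Kng1, Ucp2 and Ucp3 as partners. Other genes were named after their values were seen. Alternatives changed the arrays, scaling, filter, row choice, weights and model. The fit was also run on simulated data, where 9 of 175 calls were false. All simulated arrays were independent, so that run cannot show whether the p-values hold if the in-between arrays are not.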

Additional observations from a re-analysis of the deposited data

How the results depend on the processing

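For cold against control, main counts were 255 genes passed, 223 higher and 32 lower. The counts (passed, higher, lower) were 1346, 924 and 422 with the 2 groups fitted alone, 416, 358 and 58 with quantile normalization, and 130, 115 and 15 with no filter on dim rows, where more genes are tested. A stricter filter raised the genes that fell to 58 and kept the other counts within 1.5 times. Array weights gave 8973, 3954 and 5019. In that fit the in-between arrays knockout replicate 3 and control replicate 3 had weights of 1478 and 10.9. The other arrays of these groups had weights from 0.083 to 0.179, so the weighted counts rest largely on the in-between arrays. Without the 3 in-between arrays all were 0 in limma, with 790 genes at an unadjusted p under 0.05. Leaving out 1 array gave 23 to 985 genes passed, 22 to 666 higher and 1 to 319 lower. Median centring, averaged rows and the trend and robust options kept each count within 1.5 times.

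For cold against knockout, the main count of 405 became 222 with no filter, 708 with the stricter filter, 9973 with array weights, 0 without the in-between arrays (985 at an unadjusted p under 0.05 in limma) and 14 to 2694 with 1 array left out. The cause of these changes was not tested.

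Replicate numbers did not pair the samples: correlations of same-numbered deviations ran from -0.461 to 0.084. With the replicate number as a block the counts were 42 (38 higher, 4 lower) for cold against control and 36 for cold against knockout, and 39 of the 255 genes still passed.

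Of 112 named genes 85 passed, and 0 of these changed sign under any alternative. Where rows sit at the upper end of the scale, differences are compressed: 209 tested genes had a mean above 18.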

Other observations

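Genes outside the lists added further detail; they were chosen after their values were seen. The transferrin receptor gene Tfrc, through which cells take up iron, read 11.38, 10.88 and 10.25 in the cold and 8.13, 8.69 and 8.44 in the controls and rose by 2.41 ± 0.28 (limma adjusted p = 0.0128). Hephl1, a copper-dependent iron oxidase gene, rose by 1.57 ± 0.26 (limma adjusted p = 0.0388). Vegfd, a growth factor gene for lymphatic and blood vessels, rose by 0.65 ± 0.11 (limma adjusted p = 0.0388), and Tlcd3b, a ceramide synthase gene, by 2.09 ± 0.22 (limma adjusted p = 0.0112). Among genes that fell, the lysosomal genes Grn and M6pr, which encode progranulin and a mannose 6-phosphate receptor, fell by 0.45 (SE 0.06) and 0.44 (SE 0.07) on the log2 scale (limma adjusted p = 0.0216 and 0.0388). Both were also lower in the cold than in the knockouts, by 0.61 (cold minus knockout -0.61 ± 0.06) and 0.48 (-0.48 ± 0.07) log2 units (limma adjusted p = 0.00915 and 0.0265).

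Genes of the cytosolic ribosome, a list made after the data were seen, lay lower in the cold. Of 39 tested genes 0 passed in limma, the cold arrays lay below all controls for 31 (18.1% of all genes did so), and the median was -0.50, or -0.49 after quantile normalization and -0.46 after median centring. The mean over these genes was 10.84, 10.78 and 10.79 in the cold and 11.08, 11.48 and 11.22 in the controls. Against the knockouts 7 of the 39 were lower in the cold and 0 higher, while 1.15% of all genes were lower and 1.24% higher.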
